A study of Arabidopsis thaliana and Arabidopsis lyrata subsp. lyrata with 12 samples.

Results

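Brassinosteroids are the steroid hormones that drive cell elongation in plants, and 10 genes of their synthesis, perception and signalling, with the growth regulator AIF1, were followed through heat stress and recovery. They were taken as 10 listed *A. thaliana* loci out of 32678 in the gene table, together with every *A. lyrata* locus that the deposited annotation links to one of them, which gave 9 loci out of 32793. PRE1 had no linked *A. lyrata* locus, and each of the other 9 had exactly 1. The genes were selected on their measured counts in all 3 conditions, so their own values are given as a description with standard errors and without p-values, and a count of members past a threshold stands only beside the share of all genes past it. p-values are given for 78 other genes of brassinosteroid biology, arranged in 7 lists. These lists too were chosen with earlier results of these data known.

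RNA came from rosette leaves of soil-grown *A. thaliana* Col-0 and *A. lyrata* subsp. *lyrata* MN47 plants, 1 accession of each species. The plants were raised for 3 weeks in long days at 21 °C by day, and the paper's methods give cooler nights. HS plants were harvested right after 6 h at 37 °C, recovery plants after the same stress and a further 48 h back in the growth conditions, and control plants received no stress. Each of the 6 groups had 2 libraries, 12 in all, and the labels do not say whether the libraries of a group came from separate plants, so p-values measure only the spread between these libraries. Controls were taken with the HS plants and none with the recovery plants, so the effects of recovery and of 48 h of growth cannot be told apart. In whole leaves, fewer cells of a type and less RNA per cell cannot be told apart either.

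Totals ran from 8246880 to 45254555 reads per library, and both extremes were HS libraries. The labels were checked on genes of the heat response. HSP101, HSP18.2 and HSFA2 summed to 39023 to 39655 CPM (read counts brought to a common library total, with totals corrected by the trimmed mean of M-values, TMM) in *A. thaliana* HS libraries, 62.1 to 69.2 CPM after recovery and 8.62 to 54.9 CPM in control. In *A. lyrata* the sums were 11308 to 14109 CPM after HS, 98.1 to 105 CPM after recovery and 33.3 to 36.9 CPM in control. The *A. thaliana* controls stood apart from each other, with HSP18.2 at 46.1 CPM in replicate 1 and 2.18 CPM in replicate 2, and the replicate log2 ratios of all genes tested had an SD of 0.54 there, against 0.17 to 0.29 in the other 5 groups. The leaf markers RCA and CAB3 were high in every library, while of 3 root markers COBL9 and EXPA7 were at or near 0 and PYK10 had 58.5 to 69.1 CPM in *A. thaliana*, except for 7.88 CPM in control replicate 2, and at most 6.26 CPM in *A. lyrata*. Summed leaf markers (with RBCS1A in *A. thaliana*) were 53481 to 56447 CPM in HS libraries and 25571 to 32825 CPM in control libraries of *A. thaliana*, but 13478 to 15518 CPM in HS and 20893 to 22686 CPM in control libraries of *A. lyrata*. The floral genes AP1, PI and SEP3 summed to 15.1 to 16.2 CPM after HS and 2.08 to 4.16 CPM in control in *A. thaliana*, and to 5.15 to 5.63 CPM after HS and 2.46 to 2.58 CPM in control in *A. lyrata*. These markers moved with HS, and their part in the results below was not tested.

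In the textbook view of the pathway, cytochrome P450 enzymes convert campesterol through a chain of oxidations to brassinolide, the most active brassinosteroid, and other P450 enzymes and transferases inactivate it. The hormone is bound at the cell surface by the receptor kinase BRI1 with a co-receptor, which through BSK kinases and BSU1-type phosphatases switches off the kinase BIN2. The factors BZR1 and BES1 then act in the nucleus, where they repress synthesis genes such as DWF4 and CPD and activate growth genes. Downstream, small helix-loop-helix (HLH) proteins form an antagonistic module: IBH1 and the AIF proteins bind and hold back growth-promoting basic HLH factors, and the PRE proteins bind these inhibitors in turn.

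The members lie on all 5 chromosomes of TAIR10. The synthesis enzymes are DWF4 (AT3G50660, chr3:18814140-18817244, minus strand), CPD (AT5G05690, chr5:1702688-1706787, minus strand) and BR6OX2 (AT3G30180, chr3:11810737-11813765, plus strand), and BAS1 (AT2G26710, chr2:11380492-11383612, plus strand) is an inactivating enzyme. BRI1 (AT4G39400, chr4:18324661-18328826, plus strand) is the receptor. The 2 nuclear factors are BZR1 (AT1G75080, chr1:28185504-28188075, plus strand) and BES1 (AT1G19350, chr1:6688522-6690414, plus strand). The HLH module is represented by IBH1 (AT2G43060, chr2:17909185-17910082, plus strand), AIF1 (AT3G05800, chr3:1727306-1728296, plus strand) and PRE1 (AT5G39860, chr5:15957417-15958455, plus strand). None of the 100-base windows within any of these loci occurred elsewhere in the genome. Only BZR1 overlapped another locus, AT1G75090 on the opposite strand, over 629 bp. The libraries kept no strand, so reads from that overlap cannot be assigned, although the neighbour itself held only 2 and 13 reads in HS, 11 and 16 in recovery and 29 and 37 in control libraries.

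Promoter sequences are shown for some of the members, picked by their own values. AIF1 and PRE1 came close to 0 in heat-stressed *A. thaliana*. BRI1 moved in opposite directions in the 2 species, and CPD was higher after HS in both. A part of these members in the heat response was not tested. Each run is the 300 bases from 250 before the gene start to 50 from it, 5′ to 3′ on the coding strand, read from the RefSeq assembly TAIR10.1. Capitals mark matches to the motifs searched, which were the G-box CACGTG, the brassinosteroid response elements CGTGTG and CGTGCG, the E-box CANNTG, of which the G-box is one form, and the paired heat shock element cores GAANNTTC and TTCNNGAA, each on both strands.
AIF1 (chr3:1727056-1727355, plus strand): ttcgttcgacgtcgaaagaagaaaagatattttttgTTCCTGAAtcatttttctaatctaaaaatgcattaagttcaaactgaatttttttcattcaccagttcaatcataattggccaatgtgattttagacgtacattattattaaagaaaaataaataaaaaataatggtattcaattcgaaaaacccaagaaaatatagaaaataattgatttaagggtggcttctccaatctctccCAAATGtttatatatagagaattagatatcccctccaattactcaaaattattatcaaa
PRE1 (chr5:15957167-15957466, plus strand): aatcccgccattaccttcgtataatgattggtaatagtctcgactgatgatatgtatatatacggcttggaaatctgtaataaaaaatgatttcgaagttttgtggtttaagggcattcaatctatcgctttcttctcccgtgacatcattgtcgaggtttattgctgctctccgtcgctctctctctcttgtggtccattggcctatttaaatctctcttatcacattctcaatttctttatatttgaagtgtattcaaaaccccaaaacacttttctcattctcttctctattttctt
BRI1 (chr4:18324411-18324710, plus strand): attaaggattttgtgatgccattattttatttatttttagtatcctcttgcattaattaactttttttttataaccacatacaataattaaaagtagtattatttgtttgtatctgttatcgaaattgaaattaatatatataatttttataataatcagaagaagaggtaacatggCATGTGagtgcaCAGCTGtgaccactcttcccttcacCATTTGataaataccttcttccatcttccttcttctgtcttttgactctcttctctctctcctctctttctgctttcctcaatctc
CPD (chr5:1706738-1707037, minus strand): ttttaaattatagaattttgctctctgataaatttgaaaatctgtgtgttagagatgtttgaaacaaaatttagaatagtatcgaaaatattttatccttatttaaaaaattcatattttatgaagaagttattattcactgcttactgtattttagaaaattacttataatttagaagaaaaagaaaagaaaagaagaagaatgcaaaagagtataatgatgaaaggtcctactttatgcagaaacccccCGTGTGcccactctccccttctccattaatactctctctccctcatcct
With the first base of the gene as 1, the AIF1 window held TTCCTGAA at -214 and the E-box CAAATG at -9. BRI1 held E-boxes at -73, -61 and -36, CPD held CGTGTG at 2, and PRE1 held none of the motifs. Of the other members, BZR1 held a G-box at -85 and CACACG, the complement of CGTGTG, at -178 and -22, BES1 held 2 E-boxes, BAS1 held 1, and DWF4, BR6OX2 and IBH1 held no match. Among 31895 such windows of the genome, 61.4% held an E-box, 7.33% the G-box, 8.36% either brassinosteroid response element, 9.72% TTCNNGAA and 11.9% GAANNTTC. A match is a run of letters and not a shown binding site.

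AIF1, a HLH protein that restrains growth when it is abundant, was nearly absent from heat-stressed *A. thaliana* leaves and remained present in *A. lyrata*. In *A. thaliana* it had 0 and 1 reads in the HS libraries, 136 and 154 reads after recovery, and 261 and 493 reads in the control libraries. On the scaled level this was 0 and 0.033 CPM after HS, 10.6 and 11.4 CPM after recovery, and 15.7 and 15.8 CPM in control. The HS libraries lay far below all others, although 1 of them was the deepest of the series. Over the pooled reads the level was 587-fold lower after HS, with a 95% counting interval of 105 to 23230. The fitted log2 fold change was -8.88 (SE 0.34), which depends on the prior count of the fit, and it was the 11th lowest of 18536 genes. Without HS replicate 2, which held the only read, it was -11.00. The SE of 0.34 is thus too small for a group with 1 read, where the counting interval is far wider. In *A. lyrata*, AIF1 (AL3G16300) had 3.14 and 5.07 CPM after HS, 1.68 and 2.24 CPM after recovery, and 3.48 and 1.79 CPM in control. These libraries overlapped between HS and control, and the log2 fold change of 0.82 (SE 0.30) was 0.33 without HS replicate 2, 0.36 without control replicate 2 and 1.32 without control replicate 1.

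PRE1, which binds and neutralises inhibitors of the IBH1 type, had 0 and 2 reads in *A. thaliana* HS libraries, 51 and 48 reads after recovery, and 114 and 181 reads in control. Its levels were 0 and 0.066 CPM after HS, 3.96 and 3.54 CPM after recovery, and 6.87 and 5.80 CPM in control. AIF1 and PRE1 were thus both near 0 in the same libraries. Over the pooled reads PRE1 was 115-fold lower after HS (95% counting interval 31.5 to 953), and the fitted log2 fold change of -6.72 (SE 0.45) was -9.68 without HS replicate 2.

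IBH1, the inhibitor on which PRE1 acts, was lower after HS in both species. In *A. thaliana* it stood at 2.78 and 2.80 CPM after HS, 6.84 and 8.03 CPM after recovery, and 8.74 and 11.4 CPM in control, a log2 fold change of -1.86 (SE 0.21) for HS. In *A. lyrata* (AL4G39960) it was scarce, with 2 and 5 reads after HS, 8 and 26 reads after recovery, and 10 and 8 reads in control, and the HS change of -1.70 carried an SE of 0.61. The HS libraries lay below both other groups in each species.

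The synthesis genes did not move as a unit. DWF4, the hydroxylase of the step held to limit the rate of synthesis, had 1.17 and 1.22 CPM in *A. thaliana* HS libraries, 7.23 and 8.62 CPM after recovery, and 13.9 and 9.03 CPM in control. BR6OX2, the oxidase that makes the active hormone at the end of the chain, had 2.05 and 1.12 CPM after HS, 9.56 and 9.80 CPM after recovery, and 10.6 and 13.9 CPM in control. Both were lower in each HS library than in any other *A. thaliana* library, with log2 fold changes of -3.23 (SE 0.30) for DWF4 and -3.17 (SE 0.28) for BR6OX2, and the value of BR6OX2 was -2.58 without HS replicate 2. CPD, the P450 enzyme between these steps, went the other way, with 206 and 217 CPM after HS, 94.6 and 91.8 CPM after recovery, and 104 and 106 CPM in control. Its log2 fold change was 1.01 (SE 0.10), and the groups did not overlap.

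In *A. lyrata* CPD was again higher after HS, whereas DWF4 and BR6OX2 were only slightly below control. CPD (AL6G15420) had 168 CPM in each HS library, 79.6 and 78.0 CPM after recovery, and 76.3 and 85.2 CPM in control, a log2 fold change of 1.05 (SE 0.08). DWF4 (AL5G29770) had 7.99 and 9.00 CPM after HS, 11.5 and 10.5 CPM after recovery, and 9.12 and 11.8 CPM in control. BR6OX2 (AL5G19390) had 6.68 and 6.41 CPM after HS, 6.99 and 8.17 CPM after recovery, and 7.17 and 6.95 CPM in control. The HS changes of -0.29 (SE 0.16) for DWF4 and -0.12 (SE 0.17) for BR6OX2 were small, although the HS and control libraries did not overlap.

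BAS1, the P450 enzyme that inactivates brassinolide, was lower after HS in both species. It had 4.24 and 2.37 CPM in *A. thaliana* HS libraries, 5.13 and 5.09 CPM after recovery, and 6.75 and 7.30 CPM in control, with a HS change of -1.23 (SE 0.27). Without HS replicate 2 this change was -0.73 and without HS replicate 1 it was -1.56. In *A. lyrata* (AL4G19120) the levels were 3.93 and 3.77 CPM after HS, 6.34 and 6.67 CPM after recovery, and 7.78 and 8.17 CPM in control, with a HS change of -1.07 (SE 0.18). The order HS, recovery, control from low to high held in both species without overlap.

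BRI1, the receptor, moved in opposite directions. In *A. thaliana* it had 298 and 319 CPM after HS, 93.8 and 86.4 CPM after recovery, and 63.0 and 85.2 CPM in control, and the HS change of 2.06 (SE 0.16) lay above that of 92.2% of all genes tested. In *A. lyrata* (AL7G11400) it had 61.7 and 61.3 CPM after HS, 76.6 and 87.5 CPM after recovery, and 84.0 and 92.6 CPM in control, a HS change of -0.53 (SE 0.09). HS and control libraries were apart in both species. No other BRI1 library of either species came near the 2 *A. thaliana* HS libraries.

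BZR1 and BES1 are the nuclear effectors. BZR1 had 21.2 and 22.3 CPM in *A. thaliana* HS libraries, 16.9 and 12.9 CPM after recovery, and 13.8 and 13.9 CPM in control, and its HS change of 0.65 (SE 0.15) was -0.09 when libraries were scaled by their totals alone. In *A. lyrata* (AL2G33410) it had 32.2 and 27.1 CPM after HS, 24.2 and 23.2 CPM after recovery, and 23.8 and 20.3 CPM in control, a change of 0.41 (SE 0.11). BES1 had 58.8 and 59.2 CPM after HS, 70.0 and 64.2 CPM after recovery, and 62.4 and 66.8 CPM in control in *A. thaliana*, a change of -0.13 (SE 0.10). In *A. lyrata* BES1 (AL1G31460) had 32.7 and 34.3 CPM after HS, 46.9 CPM in each recovery library, and 48.8 and 44.1 CPM in control, a change of -0.46 (SE 0.09). Of these 4 gene and species combinations, *A. thaliana* BES1 had the smallest HS change.

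**Figure D1:**
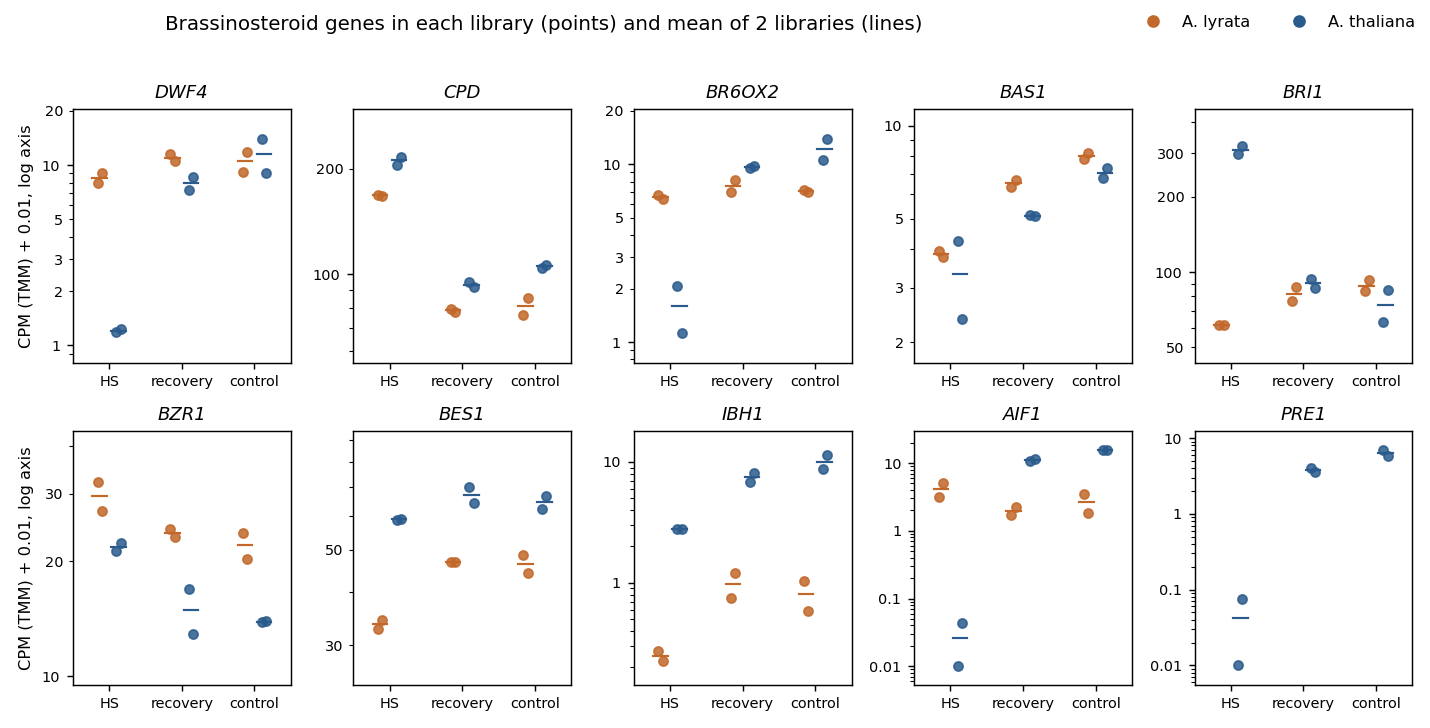
Level of each member in each library, as TMM-scaled CPM plus 0.01 on a log axis, by condition, with points for libraries, short lines for the mean of 2 libraries, orange for *A. lyrata* and blue for *A. thaliana*. A library without reads sits at 0.01, as 1 HS library each of AIF1 and PRE1 does, and the blue BRI1 points after HS, at 298 and 319 CPM, lie above all others of that gene.

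Counted against the same threshold as all genes (edgeR quasi-likelihood test, Benjamini-Hochberg adjusted p under 0.05), 3 of 10 members were higher and 6 lower after HS in *A. thaliana*, where 34.9% of 18536 genes tested were higher and 39.5% lower. In *A. lyrata* 3 of 9 were higher and 4 lower, where 37.9% of 20779 genes tested were higher and 38.7% lower. Since the members were chosen on these counts, nothing is read from the shares. The median HS change was -1.54 over the 10 *A. thaliana* members and -0.12 over all genes tested. In *A. lyrata* it was -0.29 over the 9 members and -0.01 over all genes. Scaling by library totals moved the median of all *A. thaliana* genes after HS to -0.87 and that of *A. lyrata* to -0.25. The *A. thaliana* HS libraries had TMM factors of 0.71 and 0.67, against 1.12 to 1.26 in the other 4. Under that scaling BZR1 was the only *A. thaliana* member whose HS change took the other sign, and the change was 0.26 for CPD and 1.32 for BRI1.

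After recovery no member was past the threshold in either species. In *A. thaliana*, 0 of 10 were called (DESeq2 called 0 too, and 2 were lower at an unadjusted p under 0.05), where 1.34% of genes tested were higher and 0.766% lower. In *A. lyrata*, 0 of 9 were called (DESeq2 called 0 too, and none had an unadjusted p under 0.05), where 7.65% were higher and 4.72% lower. The recovery changes of the *A. thaliana* members ran from -0.75 for PRE1 to 0.28 for BRI1, with AIF1 at -0.52. Set against HS, recovery was higher by 8.36 for AIF1 and 5.97 for PRE1 on the log2 scale, by 2.82 for BR6OX2, 2.71 for DWF4 and 1.41 for IBH1, and it was -1.78 for BRI1 and -1.18 for CPD. In *A. lyrata* the largest differences of recovery from HS were 2.14 (SE 0.54) for IBH1, -1.12 (SE 0.29) for AIF1 and -1.09 (SE 0.08) for CPD. AIF1 in recovered *A. thaliana* leaves, at 10.6 and 11.4 CPM, still lay below both control libraries.

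**Figure D2:**
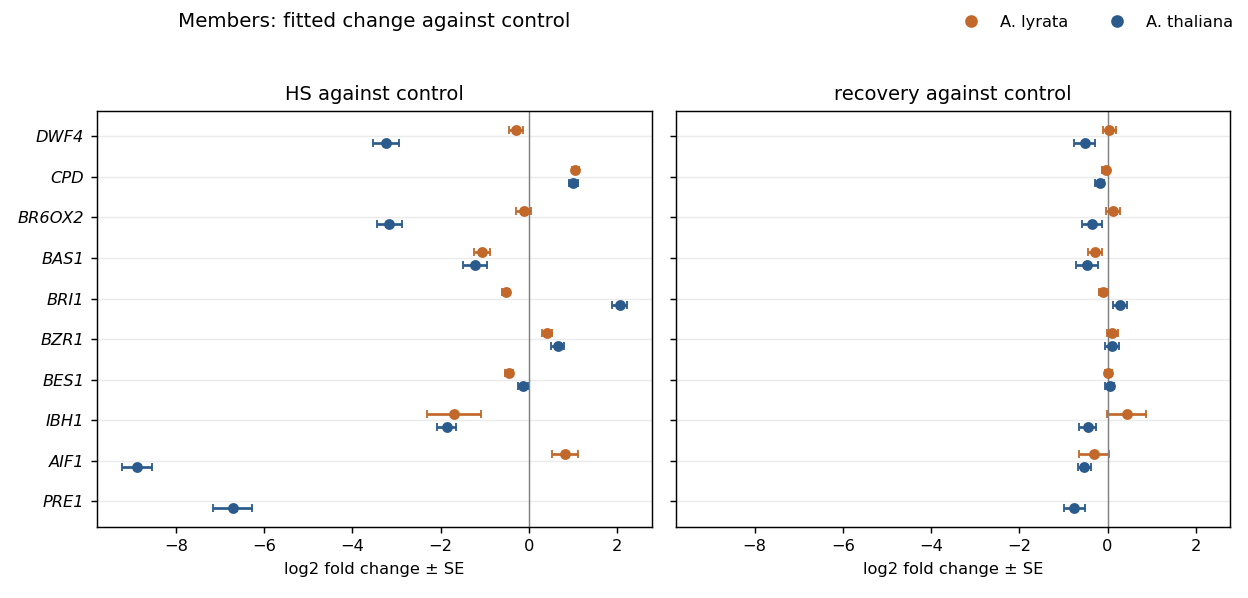
Fitted log2 fold change of each member against control, for HS on the left and recovery on the right, with bars of 1 SE, orange for *A. lyrata* and blue for *A. thaliana*. After HS the *A. thaliana* values reach from -8.88 for AIF1 to 2.06 for BRI1, while after recovery all of them lie between -0.75 and 0.28. The HS bars of *A. thaliana* AIF1 and PRE1 rest on 1 and 2 HS reads and understate the error.

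Levels can be compared between genes once they are divided by exon length. In *A. thaliana* control leaves CPD was the most abundant member, with 61.1 ± 1.05 CPM per kb (SD, n = 2), before BES1 with 41.0 ± 1.98, BRI1 with 17.8 ± 3.77 and AIF1 with 15.9 ± 0.04. BRI1 and AIF1 did not differ beyond their spread, nor did IBH1 and PRE1 (11.2 and 9.01 CPM per kb), BZR1 and BR6OX2 (7.21 and 6.87), BR6OX2 and DWF4 (4.61), or DWF4 and BAS1 (3.57). After HS the order was CPD (123 CPM per kb), BRI1 (74.1) and BES1 (37.4), with PRE1 (0.047) and AIF1 (0.017) lowest and their order unresolved, as it rests on 2 reads against 1. In *A. lyrata* control leaves the order was CPD (48.6), BES1 (32.6), BRI1 (22.0), BZR1 (13.8) and DWF4 (5.91 CPM per kb), with AIF1 next to last at 2.63 ± 1.19 and IBH1 last at 0.80 ± 0.32. AIF1 thus held the 4th place of 10 members in *A. thaliana* control leaves and the 8th of 9 in *A. lyrata* control leaves. After HS *A. lyrata* AIF1, at 4.10 ± 1.36 CPM per kb, did not differ beyond its spread from DWF4 (4.80 ± 0.41) or BR6OX2 (3.79 ± 0.11).

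Set side by side, the HS responses of 4 orthologue pairs differed most. The *A. lyrata* minus *A. thaliana* difference of log2 fold changes was 9.66 (SE 0.63) for AIF1, 3.11 (SE 0.32) for BR6OX2, 2.95 (SE 0.34) for DWF4 and -2.54 (SE 0.20) for BRI1. The AIF1 value rests on 1 read in the *A. thaliana* HS libraries, and its SE understates the error. The 5 other pairs lay between -0.30 for BES1 and 0.24 for BAS1, with CPD at 0.08 (SE 0.14). Of the 9 pairs, 3 were past the threshold as higher in *A. lyrata* and 1 as lower, where 32.0% of 17743 one-to-one pairs were higher and 30.6% lower, and the choice of members used these counts. For recovery 0 of 9 pairs were called (1 at an unadjusted p under 0.05), where 6.00% of pairs were higher and 3.41% lower.

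The genes nearest to AIF1 were sought over 15848 one-to-one pairs by the Euclidean distance between 4 log2 fold changes, those of HS and of recovery in each species. The nearest was AT5G51190 at a distance of 0.59, with changes of -8.71 and -0.24 in *A. thaliana* and 0.69 and 0.17 in *A. lyrata* for HS and recovery. It too had 0 and 1 reads in the *A. thaliana* HS libraries, against 229 and 445 in control. The next were AT2G22200 (1.67), AT1G24270 (1.70), WRKY42 (1.83) and AT1G72910 (1.97), all of them at 0 reads in at least 1 *A. thaliana* HS library. The measure gives likeness of response only.

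The wider pathway had more falls than rises after HS in *A. thaliana*. Of the 78 genes in the 7 lists, 67 had enough reads to be tested, and 20 rose and 33 fell, which is 29.9% and 49.3% of them beside the 34.9% and 39.5% of all genes tested. Scaled by library totals, 8 rose and 44 fell. Among synthesis genes 3 of 11 rose and 4 fell, among inactivating enzymes 1 of 3 rose and 2 fell, and among receptors and membrane proteins 5 of 13 rose and 5 fell. Of the kinases and phosphatases 3 of 7 rose and 1 fell, and of the transcription factors 4 of 13 rose and 7 fell. The HLH module had 2 of 12 higher and 9 lower, with a median log2 fold change of -1.86, and the growth genes that brassinosteroid is known to raise had 2 of 8 higher and 5 lower, with a median of -3.52, beside -0.12 over all genes tested.

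The largest falls of the *A. thaliana* lists were those of a growth gene of the cell wall and of a growth gene of the SAUR family. EXPA8, an expansin that loosens cell walls, had 0.58 and 0.13 CPM after HS and 57.5 and 90.7 CPM in control (log2 fold change -8.36, SE 0.45, adjusted p = 2.51e-06), and -6.96 without HS replicate 2. SAUR-AC1, an auxin and brassinosteroid responsive growth gene, had 3 reads in all after HS and 344 in control, 89.3-fold lower with a 95% counting interval of 30.3 to 435. Its fitted log2 fold change of -6.37 (SE 0.54) was -4.62 without HS replicate 2 and -7.57 without HS replicate 1. MYBL2, a MYB repressor that BIN2 phosphorylates, fell to 2.63 and 2.27 CPM after HS, against 80.1 and 83.1 CPM in control (-5.10, SE 0.14, adjusted p = 3.76e-07). AIF4, of the same family as AIF1, had 0.29 and 0.46 CPM after HS and 12.6 and 12.1 CPM in control (-4.84, SE 0.24, adjusted p = 1.97e-06). BEE2, a basic HLH factor of the early brassinosteroid response, fell by 3.53 (SE 0.15, adjusted p = 1.00e-06), and PAR1, a HLH co-factor of shade growth, fell by 3.52 (SE 0.64, adjusted p = 0.00141), or by 2.58 without control replicate 1. The inactivating enzymes CYP72C1 and DOGT1 fell by 3.24 (SE 0.41, adjusted p = 0.000196) and 1.68 (SE 0.26, adjusted p = 0.000620), and that of CYP72C1 was -4.05 without HS replicate 2.

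The rises in *A. thaliana* were smaller. BEN1, a reductase-like protein linked to brassinosteroid turnover, had 15.1 and 17.7 CPM after HS and 3.50 and 3.52 CPM in control (2.24, SE 0.18, adjusted p = 1.67e-05). BEE3, another early-response basic HLH factor, rose by 2.16 (SE 0.20, adjusted p = 3.33e-05), and DWF1, the reductase that makes campesterol, had 685 CPM in each HS library, against 172 and 155 CPM in control (2.07, SE 0.12, adjusted p = 3.29e-06). BSK1, a kinase activated by BRI1, rose by 1.48 (SE 0.11, adjusted p = 1.25e-05), and MSBP1, a membrane steroid-binding protein that dampens signalling, rose by 1.26 (SE 0.10, adjusted p = 1.80e-05). ARL, a cell expansion gene, rose by 1.58 (SE 0.27, adjusted p = 0.000950), OPS, a phloem protein that holds BIN2 at the membrane, by 1.29 (SE 0.20, adjusted p = 0.000589), and BEH2, a relative of BZR1, by 1.11 (SE 0.15, adjusted p = 0.000278).

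In *A. lyrata* the falls again outnumbered the rises. Of 67 genes tested 20 rose and 34 fell, which is 29.9% and 50.7% of them beside the 37.9% and 38.7% of all genes tested. Among synthesis genes 4 of 11 rose and 6 fell, among inactivating enzymes 2 of 3 rose and none fell, and among receptors and membrane proteins 3 of 13 rose and 8 fell. Of the kinases and phosphatases 1 of 7 rose and 4 fell, of the transcription factors 6 of 13 rose and 6 fell, and of the HLH module 2 of 12 rose and 5 fell. The growth genes again had 2 of 8 higher and 5 lower, with a median of -1.54, beside -0.01 over all genes tested.

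**Figure D3:**
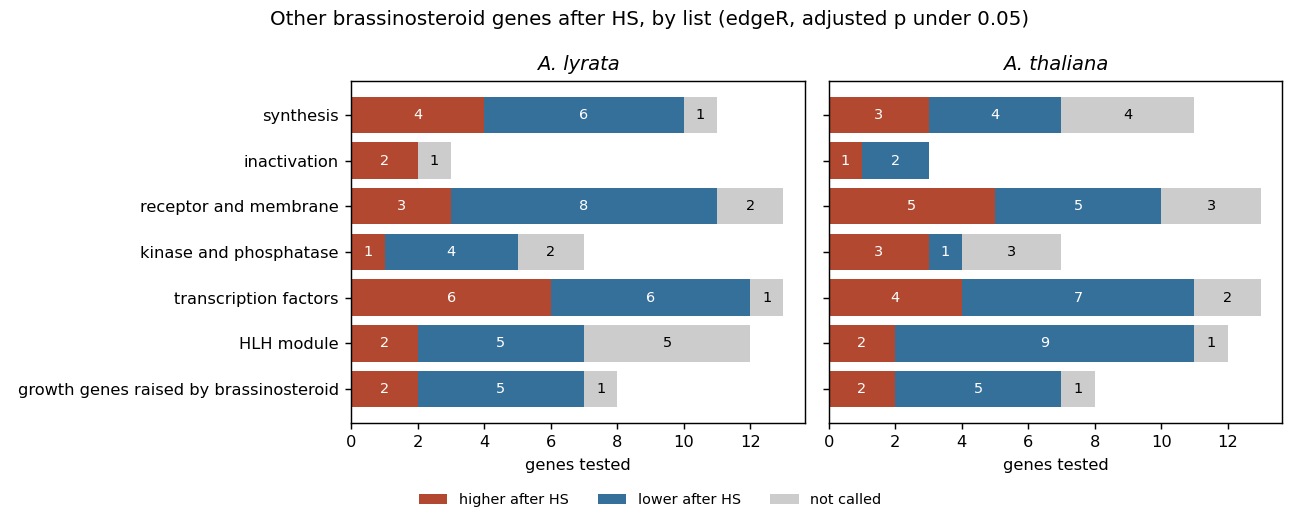
Number of genes tested in each of the 7 lists that were higher, lower or not called after HS, in *A. lyrata* on the left and *A. thaliana* on the right. The largest block of lower genes in *A. thaliana* is the HLH module, with 9 of 12, where *A. lyrata* has 5 of 12.

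ROT3 and CYP90D1, P450 enzymes that hydroxylate the side chain, rose in *A. lyrata* by 2.30 (SE 0.35, adjusted p = 1.02e-05) and 1.18 (SE 0.26, adjusted p = 0.000491). ROT3 had 3.14 and 2.86 CPM after HS and 0.72 and 0.50 CPM in control. BIM1, a basic HLH partner of BES1, had 102 and 94.1 CPM after HS and 37.9 and 32.3 CPM in control (1.48, SE 0.09, adjusted p = 8.07e-11). BEN1 rose by 1.25 (SE 0.16), EXO, a growth gene of the cell wall, by 1.11 (SE 0.09), BEE3 by 1.09 (SE 0.19), the receptor-like kinase BRL2 by 0.93 (SE 0.17) and CYP72C1 by 0.89 (SE 0.17), with adjusted p of at most 0.000115.

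EXPA8 fell in *A. lyrata* too, with 0 and 0.52 CPM after HS and 28.2 and 28.4 CPM in control (-6.16, SE 0.28, adjusted p = 1.52e-12), a value that was -11.50 without HS replicate 2. BEE2 fell by 3.53 (SE 0.11, adjusted p = 1.57e-14). HBI1, the basic HLH factor that IBH1 holds back, had 16.0 and 14.5 CPM after HS and 148 and 145 CPM in control (-3.29, SE 0.09, adjusted p = 2.09e-15). IAA19, an auxin response repressor that brassinosteroid induces, fell by 3.12 (SE 0.22, adjusted p = 7.20e-10). PAR2, a relative of PAR1, fell by 2.92 (SE 0.18, adjusted p = 9.50e-11). The sterol methyltransferase SMT2 fell by 1.90 (SE 0.10), BIL1, a kinase of the BIN2 group, by 1.66 (SE 0.08), and TCP1, an activator of DWF4, by 1.86 (SE 0.39, adjusted p = 0.000358). The call of TCP1 was lost without HS replicate 2 (-1.14).

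After recovery no wider gene was called in *A. thaliana*. None of the 67 genes tested passed the edgeR test, where only 1.34% of all genes tested were higher and 0.766% lower. At an unadjusted p under 0.05, 11 of the 67 were higher and 3 lower, and the share of all genes at that level is not given here. DESeq2 called 0 higher and 1 lower. The count rested on the control libraries: with control replicate 1 left out it was 13 higher and 8 lower, and with control replicate 2 left out 14 higher and 9 lower, the remaining control being assumed to vary like the other groups. Among the smallest p of each list were SMT3, a sterol methyltransferase (0.63, SE 0.13, adjusted p = 0.0553), the co-receptor kinase SERK1 (1.04, SE 0.22, adjusted p = 0.0571) and KCS1, a fatty acid elongase (-0.73, SE 0.17, adjusted p = 0.0708). BEN1 (-0.31), OPS (0.65), the factor MYB30 (-0.38) and PRE6 (-0.42), a relative of PRE1, were the others, with adjusted p from 0.129 to 0.414.

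In *A. lyrata* 10 of 67 genes were higher and 6 lower after recovery, which is 14.9% and 8.96% beside the 7.65% and 4.72% of all genes tested, and DESeq2 called 6 and 3. Without control replicate 2 these counts were 5 and 3, and without recovery replicate 2 they were 6 and 2. AIF4, a relative of AIF1, had 8.39 and 9.41 CPM after recovery and 3.07 and 3.51 CPM in control (1.43, SE 0.18, adjusted p = 4.80e-05). AIF1 itself had a recovery change of -0.31, which was 0.19 without control replicate 1, so it had no settled direction. TCH4, a wall-modifying xyloglucan enzyme, had 89.0 and 87.9 CPM after recovery and 49.7 and 54.1 CPM in control (0.77, SE 0.08, adjusted p = 3.31e-06). SERK4, another co-receptor kinase, rose by 0.71 (SE 0.10, adjusted p = 0.000194), KCS1 by 0.60 (SE 0.10, adjusted p = 0.000745) and TTL3, a scaffold of the signalling complex, by 0.50 (SE 0.07, adjusted p = 0.000226). MYBL2 fell by 0.62 (SE 0.10, adjusted p = 0.000688). PAR1 (2.27), BEN1 (0.66), DOGT1 (0.50), the receptor inhibitor BKI1 (-0.71), the steroid reductase DET2 (-0.77), TCP1 (-1.15) and HBI1 (-0.23) passed as well, but each lost its call in at least 1 fit with a library left out. BIN2 had the smallest p of the kinases and phosphatases, of which none was called, with -0.08 (SE 0.08, adjusted p = 0.589).

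The difference between the species was itself tested for 67 of the wider pairs. The HS response was higher in *A. lyrata* for 18 and lower for 23, which is 26.9% and 34.3% beside the 32.0% and 30.6% of all pairs, and with libraries scaled by their totals for 29 and 11. The pairs with a higher response included 4 of 12 of the HLH module, 5 of 13 transcription factors, 4 of 8 growth genes and 2 of 3 inactivating enzymes. The pairs with a lower response included 6 of 11 synthesis genes, 6 of 13 receptors and membrane proteins and 4 of 7 kinases and phosphatases. The response of AIF4 was higher in *A. lyrata*, with 3.67 and 3.38 CPM in *A. lyrata* HS and 3.07 and 3.51 CPM in its control, beside the near loss in *A. thaliana* given above (difference 4.93, SE 0.32, adjusted p = 1.80e-08). KCS1 differed by 4.66 (SE 0.28, adjusted p = 7.74e-09), with 9.56 and 11.0 CPM after HS and 19.8 and 21.3 CPM in control in *A. lyrata*, and 1.75 and 1.05 CPM after HS and 50.7 and 67.2 CPM in control in *A. thaliana*. IBL1, a relative of IBH1, differed by 4.29 (SE 0.49), CYP72C1 by 4.14 (SE 0.39, and by 4.95 without *A. thaliana* HS replicate 2), MYBL2 by 3.86 (SE 0.19), BEH1, of the BZR1 family, by 3.86 (SE 0.35) and CYP90D1 by 2.66 (SE 0.42), with adjusted p of at most 7.79e-05.

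Among the responses that were lower in *A. lyrata*, that of IAA19 differed most. It had 0.92 and 1.00 CPM after HS and 8.09 and 8.89 CPM in control in *A. lyrata*, and 4.09 and 5.92 CPM after HS and 3.38 and 4.87 CPM in control in *A. thaliana* (difference -3.42, SE 0.38, adjusted p = 2.99e-06). BSK3, a kinase next to the receptor, differed by -1.52 (SE 0.14, adjusted p = 5.87e-07), BIL1 by -1.49 (SE 0.13, adjusted p = 2.25e-07), the sterol methyltransferase SMT1 by -1.33 (SE 0.16, adjusted p = 6.84e-06), SERK1 by -1.31 (SE 0.31, adjusted p = 0.00220) and BEE1 by -1.26 (SE 0.20, adjusted p = 9.30e-05). The calls of SAUR-AC1 (3.39), TCP1 (-2.10) and ARL (-1.24) were each lost when a library was left out: SAUR-AC1 was 1.63 without *A. thaliana* HS replicate 2 and 2.80 without *A. lyrata* HS replicate 1, ARL was -0.88 without *A. thaliana* HS replicate 2, and TCP1 lost its call in 7 of 12 such fits.

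**Figure D4:**
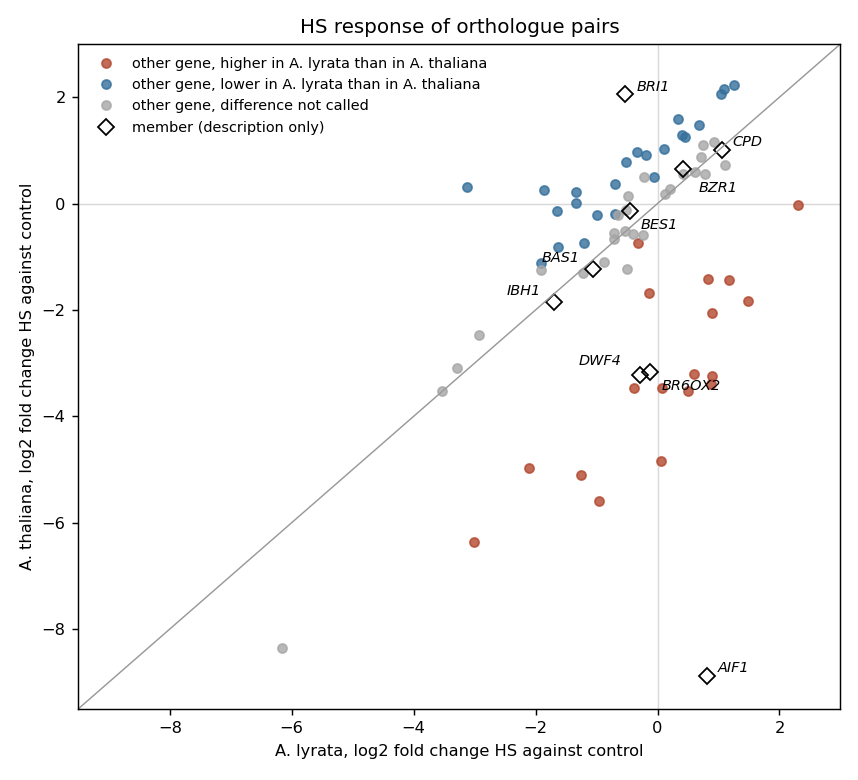
HS response of each brassinosteroid pair, as log2 fold change against control in *A. lyrata* on the horizontal axis and *A. thaliana* on the vertical axis, with the diagonal of equal response. Open diamonds are members, shown as a description, filled points are the 67 other pairs by the test of the difference, and AIF1 lies at 0.82 and -8.88, far below the diagonal.

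The AIF family did not move as one. AIF2 and AIF3, looked at after their values had been seen, had HS changes of 0.07 and -0.06 in *A. lyrata* and of -3.47 and 0.49 in *A. thaliana*. AIF2 had 5.50 and 7.27 CPM after HS and 6.15 and 6.52 CPM in control in *A. lyrata*, and 1.32 and 1.55 CPM after HS and 16.2 and 16.8 CPM in control in *A. thaliana*. AIF3 had 29.2 and 29.4 CPM after HS and 32.2 and 29.1 CPM in control in *A. lyrata*, and 46.6 and 55.4 CPM after HS and 33.2 and 39.7 CPM in control in *A. thaliana*. In *A. thaliana* the HS changes of AIF1, AIF2 and AIF4 were thus negative and that of AIF3 positive, where 39.5% of all genes tested were lower and 34.9% higher. In *A. lyrata* the changes of the 4 ran from -0.06 for AIF3 to 0.82 for AIF1. Nothing is read from these values beyond the 4 genes.

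For recovery, 5 of 67 pairs were higher in *A. lyrata* and 3 lower, which is 7.46% and 4.48% beside the 6.00% and 3.41% of all pairs. These counts were 13 and 7 without *A. thaliana* control replicate 1, 10 and 9 without its control replicate 2, and 2 and 0 without *A. lyrata* recovery replicate 2, and with libraries scaled by their totals 13 pairs were lower. Without any other single recovery library, or either *A. lyrata* control, 3 were higher and at most 1 was lower. AIF4 differed by 1.83 (SE 0.23, adjusted p = 0.000499) and KCS1 by 1.40 (SE 0.21, adjusted p = 0.00126), and both calls held in every fit with 1 library left out. SERK4 (0.84), BEN1 (1.02), TCH4 (0.65), ARL (-1.65), SERK1 (-1.11) and MYBL2 (-0.56) passed with adjusted p of 0.00472 to 0.0367, and each lost its call in at least 1 such fit. Neither synthesis genes nor kinases and phosphatases had a called pair, the smallest p being those of ROT3 (1.18, adjusted p = 0.0947) and BSL3 (-0.26, adjusted p = 0.377).

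Of the 44 wider genes named by the rule given below, AIF2 and AIF3 not among them, DET2, ROT3, SERK1 and BIN2 overlap another *A. thaliana* locus. The *A. lyrata* locus of CYP72C1 overlaps AL7G49620. Reads over such overlaps cannot be assigned without strand. With 2 libraries against 2, the smallest two-sided p that an exact permutation test could reach for 1 gene is 0.333, so all calls rest on the spread that edgeR shares across genes.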

How the data were processed

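Gene counts of 12 libraries were analysed. Per the study's methods, the authors made non-stranded TruSeq libraries from total RNA, sequenced 100 bp single reads, cleaned them with FASTX tools, aligned them to TAIR10 or the *A. lyrata* genome by tophat2 and took gene counts from Qualimap. FastQC and TopHat are also named in the submitters' processing notes. How reads with several mapping positions were counted is not given in the sources used here. The deposited values used are raw read counts per gene, as the authors gave them. The 12 other columns of per-library values, headed RPKM, were not used. Gene positions lay within 2000 bp of the reference for 99.9% of 31912 matched nuclear loci.

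Counts were fitted in R 4.3.3 with edgeR 4.0.16 (filterByExpr with a minimum count of 10 and a minimum total of 15, TMM scaling, quasi-likelihood F-test). The 6 libraries of a species shared 1 fit with 3 residual degrees of freedom, with common biological coefficients of variation of 0.139 for *A. thaliana* and 0.0748 for *A. lyrata*. The same controls served the HS and the recovery comparison. Differences between the species were the interaction of species and condition in 1 fit of 17743 pairs, from 22051 one-to-one links. Benjamini-Hochberg adjustment ran over all genes or pairs, and calls were made below an adjusted p of 0.05. The SE of a log2 fold change was obtained as its absolute value over the root of F. Where a group had few or no reads, the fold change depends on the prior count, and this SE can understate its error. DESeq2 1.42.0 served as an alternative test. Where a group had 1 to 3 reads, the ratio of pooled reads is given with an exact 95% interval, which covers counting error only. The fits were run on simulated counts with known changes in a small part of the genes. Data in which most genes move were not simulated. Members and lists were chosen with earlier results of these data known. The text names every member, up to 2 rises and 2 falls of each list and comparison with the largest change among called genes whose libraries do not overlap (at most 8 each way), or the smallest p where none was called, and the 5 genes nearest to AIF1. Replicate numbers were not used as pairs in the main fits. The correlations of replicate differences between conditions were 0.068, -0.023 and -0.077 in *A. thaliana* and 0.217, -0.0038 and -0.0062 in *A. lyrata*. With 2 libraries per group, these values cannot exclude that libraries of the same number shared a batch.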

Additional observations from a re-analysis of the deposited data

Results flagged for a closer look

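The test of the difference between the species separated the HS responses of 18 wider brassinosteroid pairs as higher and 23 as lower in *A. lyrata*. Differences of log2 fold changes, *A. lyrata* minus *A. thaliana*, were 4.93 for AIF4, 4.66 for KCS1, 4.29 for IBL1, 4.14 for CYP72C1, 3.86 for MYBL2, 3.86 for BEH1, 3.39 for SAUR-AC1 and 2.66 for CYP90D1. They were -3.42 for IAA19, -2.10 for TCP1, -1.52 for BSK3, -1.49 for BIL1, -1.33 for SMT1, -1.31 for SERK1, -1.26 for BEE1 and -1.24 for ARL. Of these, SAUR-AC1, TCP1 and ARL lost their call when a library was left out.

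Among the members, BRI1 (-2.54) and AIF1 (9.66) had HS libraries on opposite sides of the mean control level in the 2 species, each library of *A. lyrata* on one side and each of *A. thaliana* on the other, and they are given as values without a p, because the members were chosen on these counts and no test of them is independent. The same held after recovery for DWF4 (0.62) and BRI1 (-0.32), given in the same way. The recovery change of DWF4 in *A. lyrata* was 0.036, and it was -0.11 without control replicate 1 and -0.011 without recovery replicate 1. That of BRI1 in *A. lyrata* was -0.10, and it was -0.011 without recovery replicate 1. In *A. lyrata* the recovery and control libraries of BRI1 and of DWF4 overlapped, as did the HS and control libraries of AIF1.

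After recovery the test separated 5 wider pairs as higher and 3 as lower in *A. lyrata*. The differences were 1.83 for AIF4, 1.40 for KCS1, 1.02 for BEN1, 0.84 for SERK4 and 0.65 for TCH4, and -1.65 for ARL, -1.11 for SERK1 and -0.56 for MYBL2.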

How the results depend on the processing

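Scaling by library totals gave 8 wider genes higher and 44 lower after HS in *A. thaliana* (main counts 20 and 33), 2 higher after recovery in *A. thaliana* (main 0), 29 higher and 11 lower for the species difference after HS (main 18 and 23) and 13 lower for that after recovery (main 3), and it turned *A. thaliana* BZR1 after HS to -0.095. For recovery in *A. thaliana* (main 0 and 0), no filter on low counts gave 6 higher and 1 lower, at least 10 reads in every library gave 2 higher, and DESeq2 gave 1 lower. DESeq2 gave 6 higher and 3 lower after recovery in *A. lyrata* (main 10 and 6), and its size factors gave 5 lower for the species difference after recovery. The cause of these shifts was not tested. With each library left out in turn, the counts ran from 15 to 24 higher and 30 to 34 lower after HS and from 0 to 14 and 0 to 9 after recovery in *A. thaliana*, from 18 to 20 and 27 to 33 after HS and from 5 to 10 and 2 to 5 after recovery in *A. lyrata*, and from 16 to 21 and 18 to 28 (HS) and 2 to 13 and 0 to 9 (recovery) for the species difference. The replicate block gave 20 and 33, 0 and 0, 20 and 34, 10 and 7, 19 and 23, and 5 and 3 in the same order. The main fits did not use this block.

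Of 615 values of named wider genes for HS under the alternatives, 13 lost their call, and of 400 for recovery 60 lost and 18 gained one. The sign of a member's HS change differed in 1 of 224 values, that of BZR1, and of its recovery change in 11 of 224. DESeq2 called 9 of 10 *A. thaliana* and 5 of 9 *A. lyrata* members after HS. The share of all genes that DESeq2 called is not given here. By edgeR 34.9% of all genes tested were higher and 39.5% lower in *A. thaliana*, and 37.9% and 38.7% in *A. lyrata*. Since the members were chosen on these counts, nothing is read from the numbers called. Few reads were counted for AIF1 and PRE1 in heat-stressed *A. thaliana* and for IBH1 in *A. lyrata*, each below 6 reads in every HS library of those groups.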
